A study of Arabidopsis thaliana with 22 samples.

Results

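The 38 genes described here encode the enzymes of the Calvin cycle and of photorespiration in Arabidopsis thaliana. They were chosen by locus for their place in the pathways, 25 in the Calvin cycle and 13 in photorespiration, out of 33602 genes counted by RNA sequencing. The seedlings were wild type of the Col-0 ecotype, grown for 6 days in darkness on a medium with sucrose, after a short white-light pulse to start germination that every group received. There were 3 colour series, blue, red and white, each sampled at the start (0 h), after 6 h of further darkness and after 6 h of continuous light, and the blue and red series also after 1 h of light. That gives 11 groups of 2 libraries, 22 libraries in all, 12 dark and 10 light. White light at 1 h was not analysed here, and no source used here gives the light intensities. The labels do not say that the 2 libraries of a group came from separate cultures, so p-values measure the spread between libraries, which may be technical. Each library is RNA from whole seedlings, in which a change in the number of cells of a type and a change in RNA per cell cannot be told apart.

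In the Calvin cycle Rubisco joins CO2 to a sugar with 2 phosphates, the product is reduced to triose phosphate with ATP and NADPH from the light reactions, and the remaining enzymes rebuild the acceptor. Rubisco also accepts oxygen, which yields 2-phosphoglycolate, and photorespiration recovers its carbon through chloroplast, peroxisome and mitochondrion. A seedling in the dark holds etioplasts that lack working photosystems, and light starts their conversion to chloroplasts. Most Calvin cycle enzymes of plants are products of nuclear genes, and small subunit and activase genes of Rubisco are classical light-responsive genes.

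Library totals were 35000731 to 72685876 counts in the dark and 59054903 to 138804638 in the light, and the labels say that dark libraries were sequenced 4 to a pool and light libraries 2 to a pool, so depth and light cannot be told apart. The 38 genes held 0.529% to 1.33% of all counts in the dark libraries, 1.05% to 1.66% after 1 h of light and 1.78% to 3.90% after 6 h. A single dark library stood apart: replicate 2 of the red 0 h group had the lowest share, 0.529%, against 0.928% in replicate 1. The comparisons that use it, those at 1 h of red light and those of 6 h dark with 0 h, are given below with and without it. The etiolation markers PORA, a protochlorophyllide reductase of dark-grown tissue, and PHYA, the photoreceptor that accumulates in darkness, summed to 1370 to 2589 CPM, that is counts brought to a common library size, in the dark and 358 to 1674 CPM in the light, and both fell after 6 h of light (-3.84 ± 0.53 and -1.55 ± 0.11 SE on the log2 scale). Of 9 heat shock genes 8 rose after 6 h of light in the mean of the colours, where 32.5% of all genes rose and 25.9% fell. The heat shock list summed to 81.2 to 207 CPM in the dark and 260 to 1802 CPM in the light. The 3 guard cell markers summed to 18.05 to 38.8 and 11.1 to 26.0 CPM. Averaged over the colours at 6 h, MYB60 (-0.75 ± 0.11 SE) and KAT1 (-0.64 ± 0.14) were lower and FAMA was at 0.24 ± 0.16. The series differed in the guard cell sum. It was 38.8 and 26.2 CPM in blue 6 h dark and 26.0 and 22.8 in blue 6 h light. In white it was 29.3 and 31.5 and then 11.1 and 12.3, but in red 22.4 and 23.6 and then 24.7 and 25.5, higher in light. The 8 seed storage markers (5.45 to 557 and 3.80 to 776 CPM) overlapped between dark and light, and 0 of 8 were called. At most 1 of the 8 seed storage genes and none of the heat shock, guard cell and etiolation markers was at 0 in a library, and the part of these lists in the results was not tested.

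After 6 h of light most of the pathway stood higher than in the dark seedlings of the same series. Averaged over the 3 colours, 30 of the 37 members that could be tested rose and 2 fell at an adjusted p under 0.05 in edgeR's quasi-likelihood test. Of all 23011 genes tested, 32.5% rose and 25.9% fell, so rises were more frequent among the members than among all genes. With scaling to library totals alone, the share of calls that were higher among all called genes was 41.0% in place of 55.6%, and the members' counts were 29 higher and 3 lower. The same scaling moved the median change of all genes from 0.02 to -0.10 on the log2 scale. At a change of at least 1 on the log2 scale, 23 members rose and 0 fell, against 8.33% and 4.99% of all genes. The median member changed by 1.46 on the log2 scale, against 0.02 for all genes. Both pathways took part, with 20 of 25 Calvin cycle genes (median 1.46) and 10 of 12 photorespiration genes (median 1.40) higher.

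In single colours 31 of 37 members were called in blue light, 27 in red and 24 in white, against 37.4%, 27.7% and 41.6% of all genes, and TKL2 was the 1 lower call in each. At a change of at least 1 on the log2 scale 27 members rose and 0 fell in blue (all genes 8.81% and 3.97%), 24 and 0 in red (7.27% and 2.49%) and 19 and 0 in white (8.44% and 6.69%). Each colour was set against its own dark libraries. With library totals alone, the higher share of all calls was 41.1% in place of 61.0% in blue, 51.4% in place of 63.6% in red and 40.7% in place of 55.9% in white, and the members' counts were 28 higher and 2 lower, 25 and 2, and 22 and 2. A core of 21 members rose in all 3 colours: RBCS1B, RBCS3B, RCA, PGK1, PGK2, GAPA2, GAPB, FBA1, FBA2, CFBP1, SBPASE, TKL1, RPE, RPI3 and CP12-2 of the Calvin cycle, and GOX1, GOX2, GGT1, GLDP1, SHM1 and HPR1 of photorespiration. A further 7 rose in 2 colours, among them RBCS1A and RBCS2B, which were called in blue and red. TKL2 fell in all 3.

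Some single-colour calls were lost when 1 library was left out, which leaves 1 library in a group and gives the test less power. A lost call is therefore no sign by itself that 1 library carried the change. Over all fits tried, the estimate of CFBP1 in white ran from 0.88 to 1.07 on the log2 scale. That of PGK2 in red ran from 0.41 to 0.52. In white, CFBP1 lost its call whichever of the 4 libraries was left out (edgeR adjusted p between 0.0853 and 0.167), GOX1 without either dark library or replicate 1 of light (0.0608 to 0.0919) and PGK2 without replicate 1 of light (0.0588). In red, PGK2 lost it whichever of the 4 libraries was left out (0.0576 to 0.165), RBCS2B without either dark library or replicate 2 of light (0.0616 to 0.123), GAPA1 without replicate 2 of dark (0.0531) or of light (0.0699), and GLDT without replicate 1 of dark (0.0511) or replicate 2 of light (0.0808). In blue, RBCS2B lost it without replicate 2 of dark (0.0839) and GAPA1 without replicate 2 of dark (0.128) or of light (0.0559). The cases of RBCS1A, CFBP2, PRK and CAT2 are given with those genes.

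**Figure D1:**
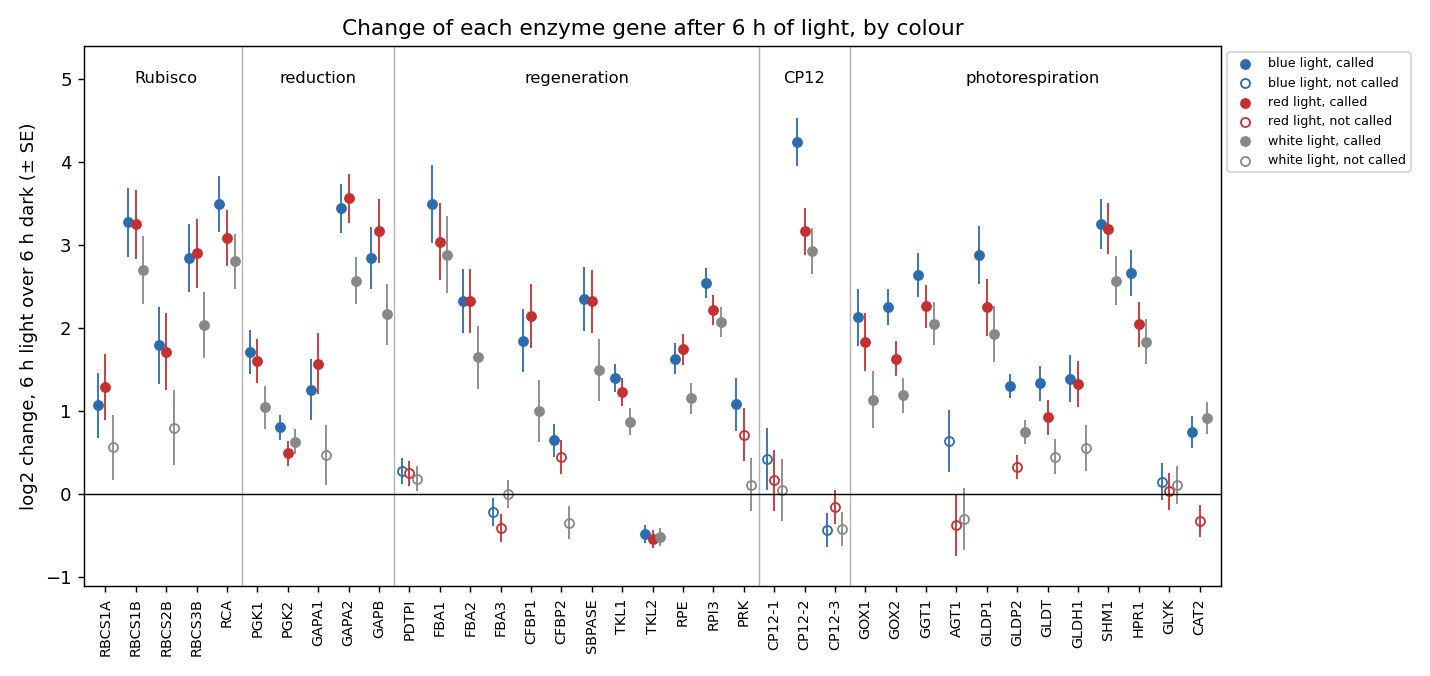
Log2 change of each of the 37 tested genes after 6 h of light over 6 h of darkness, grouped by role. Points are the estimates of edgeR's fit for blue, red and white light, bars are ± SE, and filled points passed an adjusted p of 0.05. CP12-2 in blue light is the highest point, and TKL2 is the gene called lower in all 3 colours.

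Of the 4 small subunit genes of Rubisco, RBCS1A, RBCS2B and RBCS3B stood among the highest members per kilobase in darkness (RBCS1B had rank 26), all 4 did so in light, and all 5 nuclear genes of the Rubisco group, RCA included, rose. The enzyme is built of a plastid-encoded large subunit and small subunits from 4 nuclear genes, RBCS1A (AT1G67090) and the neighbouring RBCS1B (AT5G38430), RBCS2B (AT5G38420) and RBCS3B (AT5G38410) on chromosome 5. RBCS1A, the main small subunit gene, was at 3837 and 2323 CPM in the 2 blue 6 h dark libraries and 5888 and 7043 in 6 h of blue light. In the red series it was at 1800.5 and 1491 CPM in the dark and 3215 and 4847 in the light, and in the white series at 2545 and 2373 and 3763 and 3522. Light exceeded dark in each series, but the highest dark library of the blue series lay above both light libraries of the white series and replicate 1 of red light. The mean change was 0.98 ± 0.23 (SE) on the log2 scale, a 1.97-fold rise (edgeR adjusted p = 0.00198). Its blue call was lost in edgeR with RLE size factors (adjusted p = 0.0535), with library totals alone (0.0771) and with only the libraries of the comparison (0.0778). Its single-colour calls were also lost in fits that left 1 library in a group. The blue call was lost without replicate 2 of blue 6 h dark (log2 change 0.75) or either blue light library (1.19 and 0.94). The red call was lost without either red dark library (1.40 and 1.14) or replicate 2 of red light (0.93). The other small subunit genes rose more, RBCS1B by 3.08 ± 0.24 (SE), RBCS3B by 2.60 ± 0.24 and RBCS2B by 1.44 ± 0.26.

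The make-up of the small subunit counts differed between stages. RBCS1A held 70.8% to 78.3% of all RBCS counts in the 12 dark libraries and 75.9% to 82.1% in the 4 libraries of 1 h of light, but 52.3% to 57.3% in the 6 libraries of 6 h of light. RBCS1B went from 3.23% to 4.27% in the dark to 10.3% to 13.2% at 6 h, and RBCS3B from 8.55% to 12.6% to 20.2% to 24.6%, with no overlap between dark and 6 h light for either. RBCS2B held 9.14% to 12.8% in the dark and 9.32% to 12.1% at 6 h, but 5.35% to 9.07% at 1 h. These shares are a description with no test. The genes share sequence: 1.48% of the 50-base words of RBCS1A, 13.98% of RBCS1B, 21.4% of RBCS2B and 18.3% of RBCS3B occur in another of the 4. The split between them is uncertain to that extent, since how reads that fit several genes were counted is not given in the sources used here.

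**Figure D2:**
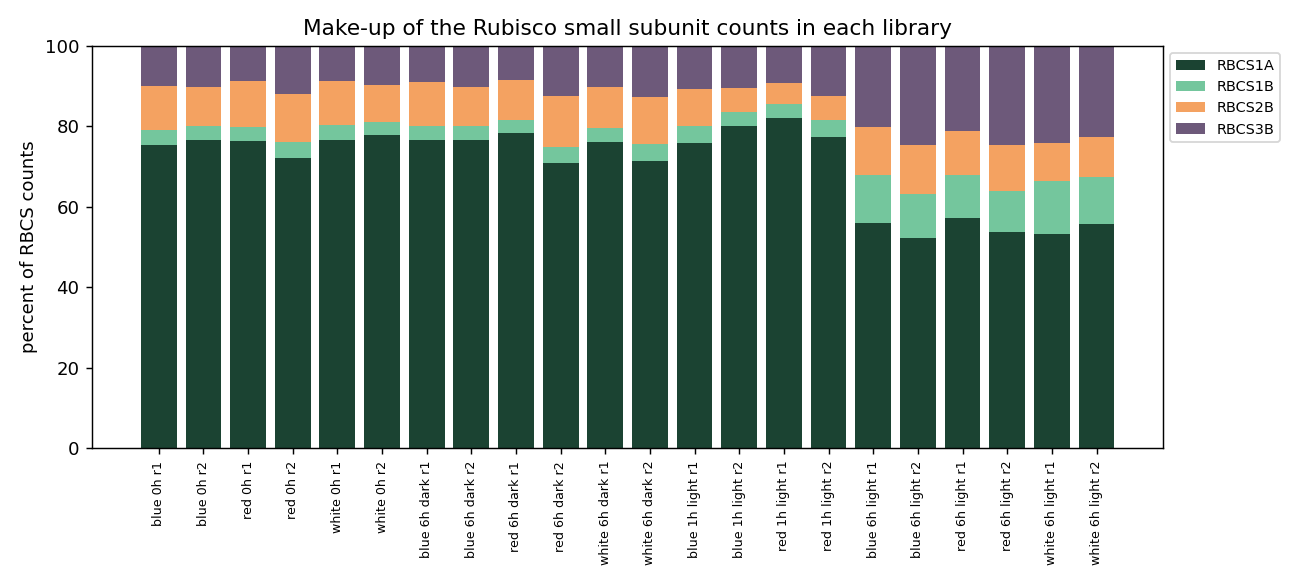
Percent of all Rubisco small subunit counts held by each of the 4 RBCS genes, 1 bar for each of the 22 libraries, dark libraries first, then 1 h and 6 h of light. The RBCS1A share is 52.3% to 57.3% in the 6 bars of 6 h light and at least 70.8% in all others.

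The promoters of small subunit genes are textbook examples of the I-box and G-box arrangement, so the stretch from an I-box core (GATAAG) to a G-box (CACGTG) downstream of it, in that order, was read from the RefSeq TAIR10.1 genome. Such a stretch of at most 30 bases, with the I-box core on either strand, stood within 500 bases before the coding start in RBCS1A, RBCS2B and RBCS3B. It stood in no other member and in 0.16% of all 27443 protein-coding genes. These counts hold for this limit only, which equals the length of the RBCS1A stretch. In CFBP1 an I-box core, as CTTATC, starts 170 bases before the coding start and a G-box 136, a longer stretch. The 3 stretches are shown 5′ to 3′ on the gene's strand, with the 2 motifs in capitals.
RBCS1A: GATAAGattcatggaattatcttcCACGTG
RBCS2B: GATAAGattatggagttttctgcCACGTG
RBCS3B: GATAAGataatggagttttctgcCACGTG
They lie at chr1:25049503-25049532, chr5:15382189-15382217 and chr5:15378518-15378546, all on the minus strand, and start 283, 239 and 240 bases before the coding start. The genes span chr1:25048158-25049667 (RBCS1A) and, from RBCS3B over RBCS2B to RBCS1B, chr5:15376988-15378642, chr5:15380907-15382071 and chr5:15383167-15385320. The stretches of RBCS1A and RBCS3B therefore lie inside the annotated genes, and only that of RBCS2B lies before its annotated gene start. RBCS1B, the small subunit gene with the largest change, has I-box cores 170 and 165 bases before its coding start and no G-box in that window. RBCS1A, with the smallest change of the 4, has both motifs. A match is a description of the letters and not a measured binding site.

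Rubisco activase, RCA (AT2G39730), removes inhibitory sugar phosphates from Rubisco. The RCA level was 458 and 377 CPM in blue 6 h dark and 4043 and 5370.2 in blue 6 h light, 239 and 282 and 1666 and 2761 in red, and 332 and 384 and 2602 and 2406 in white. All 6 light libraries lay above all 6 dark ones, with a mean change of 3.13 ± 0.19 (SE), or 8.75-fold (edgeR adjusted p = 7.31e-09). RBCL, the plastid gene of the large subunit, had 1 to 13 counts, or 0.00807 to 0.246 CPM, in each of the 22 libraries. It was not called (-0.36 ± 0.53 SE, edgeR adjusted p = 0.579). With so few counts, neither its level in the plastid nor its response to light can be read from these data.

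All 5 genes of the reduction step rose. Phosphoglycerate kinase, encoded by PGK1 (AT3G12780) and PGK2 (AT1G56190), phosphorylates the product of Rubisco, and glyceraldehyde-3-phosphate dehydrogenase, built of A subunits from GAPA1 (AT3G26650) and GAPA2 (AT1G12900) and B subunits from GAPB (AT1G42970), reduces it. GAPA2 went from 128 and 133 to 1327 and 1509.8 CPM in the blue series, from 65.5 and 81.3 to 736 and 1003 in red and from 91.6 and 130.2 to 688 and 632 in white. The light libraries were all above the dark ones, with a mean change of 3.19 ± 0.17 (SE), or 9.15-fold (edgeR adjusted p = 1.6e-09). GAPA1 changed by 1.10 ± 0.21 (SE) and GAPB by 2.73 ± 0.22. GAPA2, the minor A subunit gene in darkness, had 0.197 to 0.365 of the GAPA1 level per kilobase of exon in the 12 dark libraries and 1.06 to 1.33 of it in the 6 libraries of 6 h light. PGK1 rose by 1.46 ± 0.15 (SE) and PGK2 by 0.65 ± 0.09.

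The 12 genes that regenerate the acceptor were split. In all 9 rose, 1 fell and 2 were not called. Among the fructose-bisphosphate aldolases of the plastid, which join triose phosphates, FBA1 (AT2G21330) rose by 3.14 ± 0.27 (SE) and FBA2 (AT4G38970) by 2.10 ± 0.22. FBA3 (AT2G01140) was at 234 and 256 CPM in blue dark and 191 and 233 in blue light, 249.7 and 244 and 173 and 200.4 in red, and 233 and 239 and 248 and 225 in white. Its light libraries were lower in blue and red and overlapped the dark ones in white, with a mean change of -0.20 ± 0.10 (SE, edgeR adjusted p = 0.0874). The call depended on the processing. FBA3 was called lower in edgeR with library totals alone (-0.32, adjusted p = 0.00678), with only genes of at least 5 CPM in 2 libraries (0.044), with only the libraries of the comparison (0.0267) and without replicate 2 of red 6 h light (0.0468), and by DESeq2 (0.038). In red light alone it was called lower with library totals (-0.48, edgeR adjusted p = 0.034), with only the libraries of the comparison (0.0467) and by DESeq2 (0.0478). Per kilobase, FBA2 stood at 0.298 to 1.43 times FBA3 in the dark and at 3.11 to 7.53 times FBA3 after 6 h of light.

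The plastid fructose-bisphosphatases release phosphate from the aldolase product. CFBP1 (AT3G54050) rose by 1.67 ± 0.22 (SE, edgeR adjusted p = 1.35e-05). CFBP2 (AT5G64380) had 11.3 and 9.53 CPM in blue dark and 14.2 and 18.4 in blue light, 10.1 and 9.20 and 10.5 and 15.9 in red, and 11.8 and 12.8 and 9.25 and 10.2 in white. Among single colours it was called in blue light (0.65 ± 0.20 SE, edgeR adjusted p = 0.0204), and white light libraries lay below their dark ones without a call (-0.34 ± 0.20 SE, adjusted p = 0.192), though it was called lower there when only the libraries of that comparison were fitted (-0.37, edgeR adjusted p = 0.0425). The mean over colours was 0.25 ± 0.12 (adjusted p = 0.0753), and it was called without replicate 1 of blue 6 h light (0.31, adjusted p = 0.0424) or replicate 1 of red 6 h light (0.32, 0.0205). Its blue call was lost without replicate 2 of blue 6 h dark (0.15) or of blue 6 h light (0.174), with library totals alone (0.0564) and with only the libraries of the comparison (0.0769). The stretch of 200 bases before the annotated start of CFBP1 shows in capitals a G-box and, as its reverse complement CTTATC, an I-box core, at chr3:20016637-20016836 on the plus strand of TAIR10.1. The G-box starts 136 bases before the coding start, and a further GATAAG, 119 bases before it, runs over the end of the stretch and is not in capitals.
CFBP1: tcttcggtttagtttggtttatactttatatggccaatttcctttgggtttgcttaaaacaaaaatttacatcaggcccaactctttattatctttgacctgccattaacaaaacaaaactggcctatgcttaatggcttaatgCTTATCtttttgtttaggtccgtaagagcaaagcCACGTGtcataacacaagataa

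Sedoheptulose-bisphosphatase, SBPASE (AT3G55800), an enzyme of the regeneration branch without a cytosolic counterpart, rose by 2.06 ± 0.22 (SE), or 4.17-fold. The transketolases, which move 2-carbon units between sugars, went in opposite directions. TKL1 (AT3G60750), the abundant form, rose from 789 and 684 to 1971 and 1922 CPM in blue, from 532 and 563 to 1110.2 and 1462 in red and from 609 and 688 to 1266 and 1109 in white. TKL2 (AT2G45290) fell from 83.7 and 76.8 to 57.2 and 58.0 CPM in blue, from 97.6 and 87.7 to 66.3 and 60.8 in red and from 90.8 and 77.2 to 60.0 and 57.5 in white. Dark and light libraries did not overlap for either gene. The mean changes were 1.17 ± 0.09 (SE) for TKL1 and -0.51 ± 0.06 for TKL2 (edgeR adjusted p = 1.05e-07 and 6.23e-06).

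The pentose phosphate epimerase RPE (AT5G61410) rose by 1.51 ± 0.11 (SE) and the isomerase RPI3 (AT3G04790) by 2.28 ± 0.10. RPI3 had the smallest adjusted p of all members, 4.2e-10 in edgeR. Its dark values were 34.7 and 27.5 CPM in blue, 25.9 and 25.8 in red and 27.4 and 31.7 in white, and its light values 167 and 194, 101 and 140.1 and 133 and 115. Exons of AT3G01505 on the opposite strand overlap 23.7% of the RPI3 exons in the RefSeq annotation, and it is not stated whether reads were counted by strand, so reads of the 2 genes cannot be told apart there. PRK (AT1G32060), phosphoribulokinase, which makes the acceptor itself, changed by 0.64 ± 0.18 (SE, edgeR adjusted p = 0.00821). Among single colours it was called in blue light (1.08 ± 0.32 SE), where the call was lost without replicate 2 of blue 6 h dark (adjusted p = 0.145) or of blue 6 h light (0.0692), and the difference between its blue and white responses was 0.97 ± 0.45 (SE, edgeR adjusted p = 0.61). The plastid triose phosphate isomerase PDTPI (AT2G21170) rose by 0.24 ± 0.09 (SE, edgeR adjusted p = 0.0291). That call was lost in 10 of 12 fits that left out a 6 h library, with adjusted p between 0.0608 and 0.175, the exceptions being those without replicate 1 of blue light or replicate 1 of red light. With library totals alone its adjusted p was 0.227.

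CP12 proteins are small disordered proteins that bind glyceraldehyde-3-phosphate dehydrogenase and phosphoribulokinase into an inactive complex in the dark. Their 3 genes differed. CP12-2 (AT3G62410) had 8.50 and 11.1 CPM in blue dark and 155 and 218 in blue light, 7.44 and 8.62 and 54.1 and 90.2 in red, and 8.81 and 10.9 and 73.2 and 77.3 in white. This was the largest change of any member, 3.45 ± 0.16 (SE), or 10.9-fold (edgeR adjusted p = 6.15e-10). CP12-1 (AT2G47400) had 218 and 303 and 239 and 459 CPM in blue, 183 and 292 and 184 and 350.1 in red, and 230.1 and 269.7 and 253 and 266 in white, in dark and light respectively. Dark and light libraries overlapped in each colour, and CP12-1 was not called (0.22 ± 0.21 SE, edgeR adjusted p = 0.402). CP12-3 (AT1G76560) had 11.2 and 15.4 CPM in blue dark and 7.97 and 11.8 in blue light, 14.2 and 14.9 and 13.9 and 12.2 in red, and 12.5 and 14.2 and 10.1 and 9.92 in white. It fell by 0.33 on the log2 scale (SE 0.12, edgeR adjusted p = 0.0258), and without replicate 2 of blue 6 h dark or replicate 1 of blue 6 h light the adjusted p was 0.0982 and 0.0785. CP12-3 light libraries were lower in red and white and overlapped the dark ones in blue. In the dark CP12-2 stood at 0.0413 to 0.0615 of the CP12-1 level per kilobase, and after 6 h of light at 0.369 to 0.927.

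**Figure D3:**
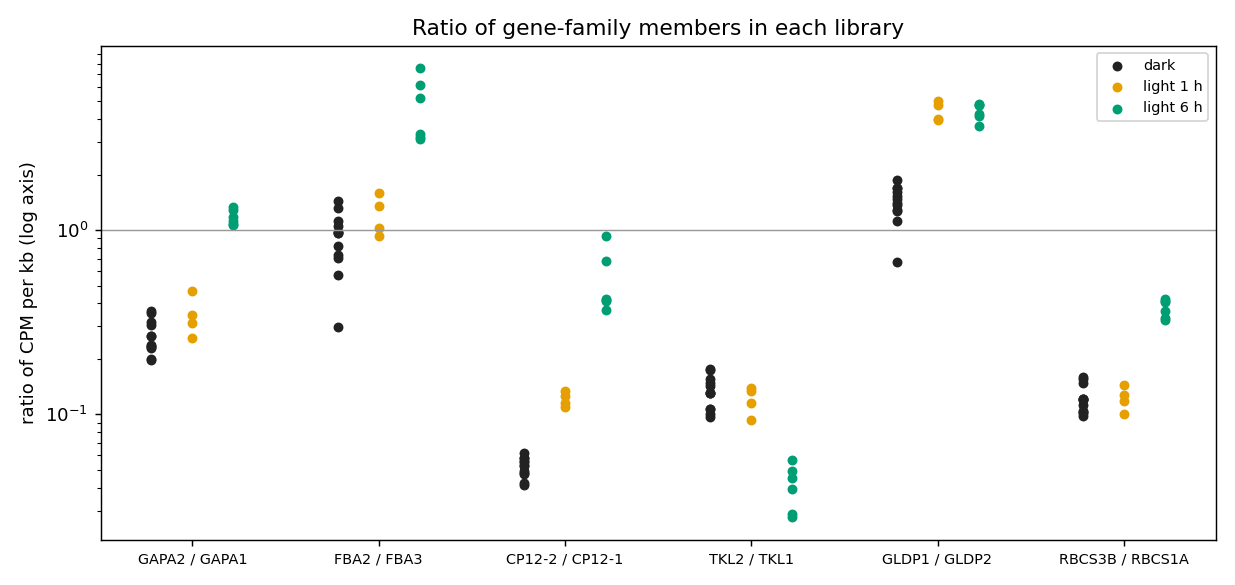
Ratio of the levels (CPM per kilobase of exon, log axis) of 2 members of 6 gene families, 1 point for each library, in darkness (12 libraries), 1 h of light (4) and 6 h of light (6). The 6 h points of GAPA2 over GAPA1 lie between 1.06 and 1.33 and its dark points between 0.197 and 0.365, while GLDP1 over GLDP2 is already at 3.98 to 4.98 after 1 h.

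In photorespiration 10 of 12 tested genes rose and 0 fell after 6 h of light. The first enzyme, 2-phosphoglycolate phosphatase PGLP1, could not be tested: its locus AT5G36700 had 1 count in 1 of the 22 libraries and 0 in the others. Each of the 100-base words of its longest transcript also occurs in a nearby gene, AT5G36790, which RefSeq describes as a haloacid dehalogenase-like hydrolase. AT5G36790 is no member and was looked at after the PGLP1 value was seen. It had 1090 and 1093 counts in blue 6 h dark and 10147 and 25591 in blue 6 h light, 434 and 571 and 7740 and 11615 in red, and 664 and 1503 and 7745 and 8446 in white. Its change was 2.95 ± 0.22 (SE, edgeR adjusted p = 4.83e-08), with all 6 light libraries above all 6 dark ones. Reads of the 2 loci cannot be told apart in most of their length.

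The peroxisomal steps rose unevenly. The glycolate oxidases GOX1 (AT3G14420) and GOX2 (AT3G14415), neighbours on chromosome 3 that make glyoxylate and hydrogen peroxide, both rose by 1.70 on the log2 scale (SE 0.20 and 0.12). The glutamate:glyoxylate aminotransferase GGT1 (AT1G23310) rose by 2.32 ± 0.15 (SE), or 4.99-fold. The serine:glyoxylate aminotransferase AGT1 (AT2G13360), which supplies the other amino groups, had 466 and 761 CPM in blue dark and 791 and 1127 in blue light, 579 and 727 and 387 and 621 in red, and 551 and 707 and 449 and 574 in white. Its light values were the higher ones in blue and overlapped the dark ones in red and white. Set against the dark library of the same replicate number, each light library was higher in blue and lower in red and white. With the replicate number added to the fit, AGT1 was called higher in blue light (0.67 on the log2 scale, edgeR adjusted p = 0.0107). The mean change was -0.01 ± 0.22 (SE, edgeR adjusted p = 0.976). In the order of levels per kilobase AGT1 had rank 3 in the 6 h dark libraries, with a median of 309 CPM per kilobase, and rank 16 after 6 h of light, with 287. HPR1 (AT1G68010), the hydroxypyruvate reductase that acts after it, rose by 2.18 ± 0.16 (SE).

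The mitochondrial step splits glycine and makes serine. GLDP1 (AT4G33010), a P protein of glycine decarboxylase, went from 327 and 235 to 1969 and 2160.2 CPM in blue, from 183 and 211 to 729.7 and 1151 in red and from 273 and 305 to 1056 and 1146 in white (2.35 ± 0.20 SE, edgeR adjusted p = 1.47e-07). The second P protein gene, GLDP2 (AT2G26080), rose by 0.79 ± 0.08 (SE), with 459.6 and 498 CPM in blue light, 191 and 266 in red light and 317 and 305 in white light against 213 and 175, 181 and 184 and 188 and 181 in the dark. The T protein gene GLDT (AT1G11860) rose by 0.91 ± 0.12 (SE) and the H protein gene GLDH1 (AT2G35370) by 1.09 ± 0.16. SHM1 (AT4G37930), the serine hydroxymethyltransferase paired with the decarboxylase, went from 109.8 and 92.9 to 917 and 1023 CPM in blue, from 61.8 and 68.5 to 469.8 and 728 in red and from 85.3 and 100.3 to 583 and 521 in white. Its change of 3.01 ± 0.17 (SE), or 8.06-fold, was the largest in photorespiration (edgeR adjusted p = 3.92e-09). For both genes every light library lay above every dark one.

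The last enzyme, glycerate kinase GLYK (AT1G80380), which returns glycerate to the chloroplast cycle, was not called. It had 130.1 and 189 CPM in blue dark and 154 and 200.3 in blue light, 169.8 and 174 and 154 and 199 in red, and 144 and 193 and 179 and 186 in white. The groups overlapped in each colour, and the change was 0.10 ± 0.13 (SE, edgeR adjusted p = 0.525).

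CAT2 (AT4G35090), the leaf peroxisomal catalase that removes the hydrogen peroxide of glycolate oxidation, differed between colours. It stood at 447 and 541 CPM in blue 6 h dark and 767 and 894 in blue 6 h light, and at 433 and 501 and 847 and 924 in white. In the red series it stood at 415 and 570.2 CPM in the dark and 344 and 445 in the light. The light libraries were above the dark ones in blue and white and overlapped them in red. CAT2 rose in blue (0.75 ± 0.19 SE, edgeR adjusted p = 0.00665, and 0.0832 without replicate 1 of blue 6 h dark and 0.0515 without replicate 2 of blue 6 h light) and white (0.92 ± 0.19, adjusted p = 0.00151), and its red change was -0.32 ± 0.19 (adjusted p = 0.242). The red response was lower than the white one by the test of the difference, -1.24 ± 0.27 (SE, edgeR adjusted p = 0.0239). This call was lost without replicate 2 of red 6 h dark (adjusted p = 0.115), replicate 1 of red 6 h light (0.0824), either replicate of white 6 h dark (0.118 and 0.0585) and replicate 2 of white 6 h light (0.0744). Without replicate 1 of white 6 h light its adjusted p was 0.05. The blue response differed from the red one by 1.07 ± 0.27 (SE, adjusted p = 0.251), which was not called.

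After 1 h of light few members were called, which does not show that the others had not moved. In red light FBA1 (1.53 on the log2 scale) and GAPB (1.25) were not called, and without replicate 2 of red 0 h they were at 0.94 and 0.72. In blue light 3 of 37 members, CP12-2, GLDP1 and CAT2, rose and 0 fell, against 5.35% and 2.78% of all genes, so the blue count is near the share of all genes. In red light 7 rose and 0 fell, against 3.72% and 0.891% of all genes. They were the same 3 with RCA, GAPA2, GGT1 and HPR1. CP12-2 went from 9.28 and 8.84 CPM at 0 h to 33.2 and 25.9 after 1 h of blue light and from 7.33 and 7.79 to 21.2 and 23.7 in red (1.70 ± 0.27 and 1.57 ± 0.27 SE, edgeR adjusted p = 0.000717 and 0.00223). GLDP1 went from 337 and 256 to 644 and 944 CPM in blue and from 236 and 102 to 690.4 and 901 in red (1.42 ± 0.33 and 2.24 ± 0.34 SE, adjusted p = 0.0139 and 0.000906). CAT2 went from 453 and 511 to 763 and 900.0 CPM in blue and from 464 and 383 to 762 and 945 in red (0.79 ± 0.19 and 1.01 ± 0.19 SE, adjusted p = 0.0177 and 0.00504). The 1 h libraries lay above the 0 h libraries for each of the 3 genes in both colours.

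The 1 h counts changed when 1 library was left out, which leaves 1 library in a group and gives the test less power. The number of all genes called changed in these fits too, so the member counts cannot be read alone. Without either replicate of blue 0 h, 1 of the 3 blue calls, CP12-2, was left. Without replicate 2 of blue 1 h light GLDP1 (edgeR adjusted p = 0.089) and CAT2 (0.0997) lost the call and RPI3 was called (0.69, adjusted p = 0.0315). In red, 20 members were called without replicate 1 of red 0 h, and 2, CP12-2 and GLDP1, without replicate 2 of red 0 h, the library that stood apart. Without that library the red changes were 1.61 for CP12-2 (edgeR adjusted p = 0.0295), 1.75 for GLDP1 (0.0097), 0.88 for CAT2 (0.0842), 0.84 for RCA (0.323), 0.60 for GAPA2 (0.403), 0.56 for GGT1 (0.428) and 0.58 for HPR1 (0.412). Leaving out replicate 1 or replicate 2 of red 1 h light gave 4 and 2. DESeq2 called 4 members in blue and 11 in red, with 2332 and 1485 of all genes called, against 1870 and 1060 in edgeR. The difference between the blue and the red 1 h response was not called for any member (0 in edgeR and 0 in DESeq2), and 0% of all genes were called in edgeR. At an unadjusted p under 0.05 in edgeR there was 1 member, against 1415 of all 23011 genes. Without replicate 2 of red 0 h the members' differences ran from -0.37 to 0.87 on the log2 scale.

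The 6 h responses were larger than the 1 h responses in many members. In blue light the 6 h response exceeded the 1 h response in 24 members and fell short of it in 0 (9.15% and 6.29% of all genes; with library totals alone 42.4% in place of 59.2% of all calls were higher). In red light it exceeded it in 13 and fell short in 2, TKL2 and CAT2 (5.82% and 4.48%). RPI3 was at 52.7 and 40.1 CPM at 1 h and 167 and 194 at 6 h of blue light, and at 29.1 and 31.6 and 101 and 140.1 in red. RPI3, GAPA2 and GLDP2 had the smallest adjusted p in blue, with differences of 2.01 ± 0.24, 2.75 ± 0.38 and 1.40 ± 0.21 (SE) between the responses. In red they were RPI3, GAPA2 and SHM1, with 1.91 ± 0.24, 2.55 ± 0.38 and 2.44 ± 0.40 (SE). GLDP1 in red light was at 690.4 and 901 CPM at 1 h and at 729.7 and 1151 CPM at 6 h, which overlap, and its 2 responses differed by 0.02 ± 0.46 (SE, edgeR adjusted p = 0.989). CAT2 in red light was above its dark libraries at 1 h and overlapped them at 6 h, and the responses differed by -1.33 ± 0.27 (SE, adjusted p = 0.00752). Without replicate 2 of red 0 h the red differences were 2.03 for RPI3, 2.97 for GAPA2, 2.90 for SHM1, 0.50 for GLDP1 (edgeR adjusted p = 0.476) and -1.20 for CAT2 (0.0255). TKL2 then lost its call (-0.39, adjusted p = 0.143). These counts changed when 1 library was left out, which leaves 1 library in a group. In blue, 14 members were called without replicate 1 of blue 0 h and 13 without replicate 2 of blue 6 h dark. In red, 24 were called without replicate 2 of red 0 h and 8 without replicate 1. The red count was 6 without replicate 1 of red 6 h dark, replicate 1 of red 1 h light or replicate 2 of red 6 h light, and 9 without replicate 2 of red 6 h dark or replicate 2 of red 1 h light.

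**Figure D4:**
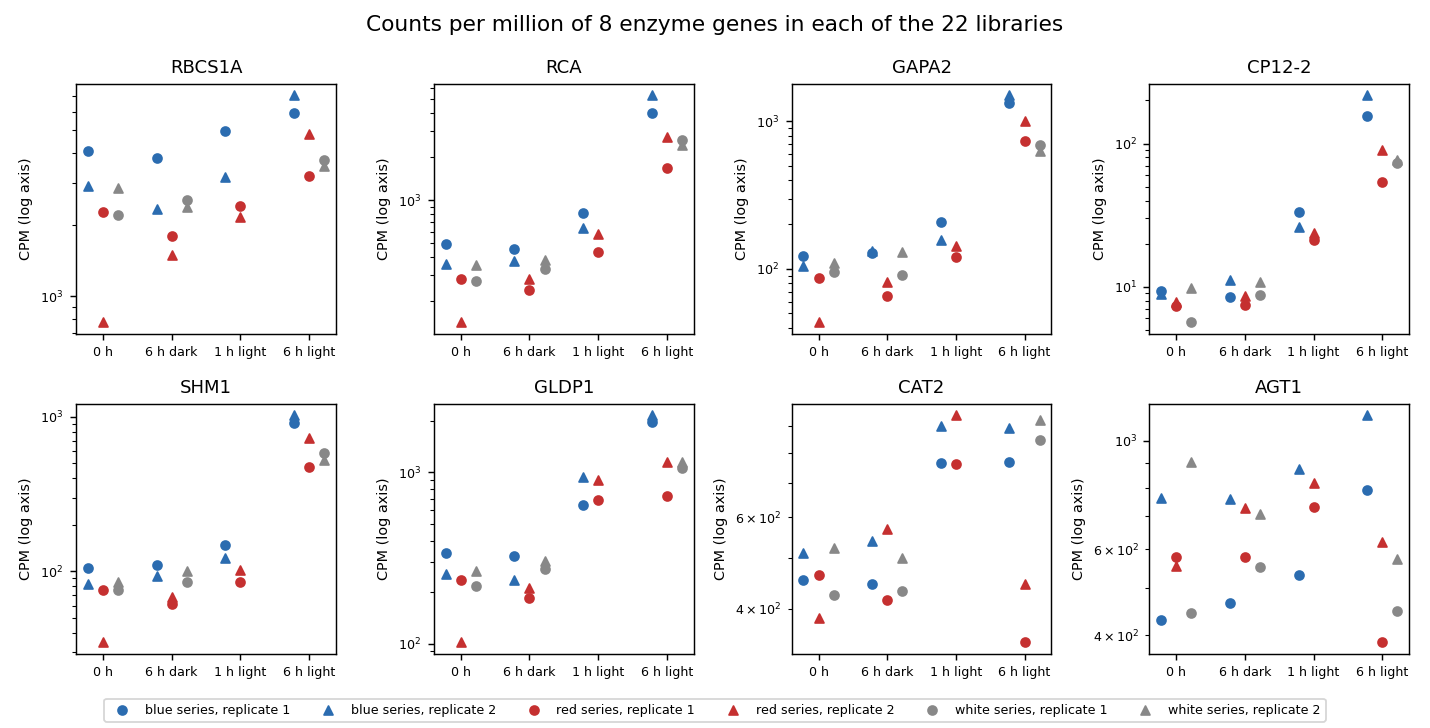
CPM (log axis) of 8 members in each of the 22 libraries, at 0 h, after 6 h of darkness and after 1 h and 6 h of light, with colour marking the series and shape the replicate. GLDP1 and CAT2 are already high in the 1 h libraries, RBCS1A spreads widely among the dark libraries with replicate 2 of red 0 h lowest at 777 CPM, and CAT2 is low in the 2 libraries of 6 h red light.

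Few differences between colours passed the test at 6 h. Blue against red called 0 members in edgeR (0.0956% of all genes called) and 2 in DESeq2, GLDP2 (0.97, adjusted p = 0.00352) and CAT2 (1.06, adjusted p = 0.0289). At an unadjusted p under 0.05 in edgeR there were 3 members, against 1460 of all 23011 genes. Without replicate 2 of red 6 h light edgeR called 1, GLDP2 (1.25, adjusted p = 0.0389). Blue against white called 0 members in edgeR and 0 in DESeq2 (0.0608% of all genes). In that comparison 10 members passed an unadjusted p of 0.05, against 1880 of all 23011 genes. The estimate was larger in blue than in white for 34 of 37 members, with a median difference of 0.68 on the log2 scale against 0.04 for all genes. The estimate was larger in red than in white for 30 of 37, where the median difference of all genes was 0.04. The counts of 34 and 30 use the same white libraries, so they are not separate results. Red against white called 1, CAT2, which was lower in red (2.72% of all genes called, 1.86% lower). When only the libraries of that comparison were fitted CAT2 missed the threshold (adjusted p = 0.0503) and CFBP1 was called (1.13, adjusted p = 0.0451). CFBP2 and GAPA2 came next, with differences of 0.79 ± 0.29 and 0.99 ± 0.38 (SE, edgeR adjusted p = 0.165 and 0.189), neither of which was called with all libraries. RBCS1A, RBCS2B, GAPA1, GLDT and GLDH1 passed the test in blue and red and not in white, and none of their differences between colours was called. All 5 were called in white when only the libraries of that comparison were fitted, with adjusted p between 0.00399 and 0.0225. That fit also called CFBP2 and CP12-3 (-0.44, edgeR adjusted p = 0.0219) lower in white.

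Further darkness for 6 h was not followed by a detectable change in the members. The mean of the 3 series at 6 h dark against 0 h called 0 of 37 members in edgeR and 0 in DESeq2, and 0% of all genes were called in edgeR. At an unadjusted p under 0.05 in edgeR there were 0 members, against 769 of all 23011 genes. The members' estimates ran from -0.10 to 0.19 on the log2 scale, and from -0.27 to 0.19 without replicate 2 of red 0 h.

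Levels per kilobase of exon were set side by side between genes. The length is that of all annotated exons of a gene, 1894 bases for RBCS1B and 935 for RBCS2B. Ranks and ratios per kilobase thus depend on the annotation. RBCS1A had the highest level in the 6 h dark libraries (1176 to 3026 CPM per kilobase) and in the 6 h light libraries (2535 to 5555). In darkness RBCS2B (244 to 579), AGT1 (224 to 365), CP12-1 (201 to 332) and GAPA1 (141 to 397) followed, with overlapping ranges. After 6 h of light RBCS3B (841 to 2355), RCA (793 to 2556), RBCS2B (652 to 1739) and GAPA2 (391 to 934) followed RBCS1A, again with overlapping ranges between neighbours. RCA had rank 10 in this order in the dark and rank 3 in the light, and GAPA2 ranks 23 and 5. CFBP2 had the lowest level of the tested members in both (6.16 to 8.59 in the dark and 6.20 to 12.3 in the light).

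Genes that serve the enzymes rose in most cases. These lists are read against the 32.5% of all genes that rose and the 25.9% that fell. In a list of Rubisco folding and assembly factors 12 of 12 rose after 6 h of light (median 1.46 on the log2 scale against 0.02 for all genes). RBCX1, an assembly chaperone, rose by 4.17 ± 0.19 (SE, edgeR adjusted p = 3.85e-10), and CBBY, a phosphatase of a Rubisco inhibitor, rose by 3.03 ± 0.19. Likewise 9 of 9 thiol redox regulators rose (median 1.91). Among them NTRC, the NADPH-dependent thioredoxin reductase of the plastid, rose by 1.94 ± 0.09 (SE) and FTRA2, a subunit of ferredoxin-thioredoxin reductase, by 1.91 ± 0.10. In photorespiratory transport and ammonium refixation 7 of 10 rose and 1 fell (median 0.68). DIT1, the oxoglutarate/malate transporter of the plastid envelope, rose by 1.63 ± 0.09 (SE), BOU, a mitochondrial carrier needed for glycine decarboxylation, by 1.20 ± 0.08, and BASS6, a glycolate transporter, fell by 0.27 on the log2 scale.

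The 2 lists of other isoforms had smaller median changes. Their counts too are read against the 32.5% of all genes that rose and the 25.9% that fell. Of 17 cytosolic and non-green plastid counterparts 10 rose and 3 fell (median 0.37), with CYFBP, the cytosolic fructose-bisphosphatase of sucrose synthesis, at 1.28 ± 0.10 (SE) and FBA5, a cytosolic aldolase, at 4.94 ± 0.41, and with GAPCP2 (-0.42 ± 0.08) and RPE3 (-0.49 ± 0.12) lower. Of 15 other photorespiration isoforms 8 rose and 2 fell (median 0.27). GGT2 (1.44 ± 0.07 SE) and MTLPD1, a mitochondrial lipoamide dehydrogenase (1.08 ± 0.09), rose, and CAT3 (-0.52 ± 0.10) and GOX3 (-0.36 ± 0.09) fell. The 2 main carbonic anhydrases, which interconvert CO2 and bicarbonate, went in opposite directions. CA1 went from 99.8 and 43.2 to 1681 and 1917 CPM in blue, from 23.9 and 28.9 to 669 and 1197 in red and from 49.4 and 55.1 to 892 and 792 in white (4.60 ± 0.38 SE). CA2 went from 3795 and 4349.7 to 802 and 1038 CPM in blue, from 3439 and 2704 to 343 and 602 in red and from 3780.1 and 4505 to 399 and 1124 in white (-2.43 ± 0.29 SE). TPT, the triose phosphate exporter, rose by 1.40 ± 0.18 (SE).

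Upstream motifs were counted on both strands in 500 bases before each coding start. The I-box core GATAAG occurred in 17 of 25 Calvin cycle genes (68.0%) and 0 of 13 photorespiration genes, against 23.5% of all 27443 protein-coding genes. The G-box CACGTG occurred in 10 of 25 (40.0%) and 1 of 13 (7.69%), against 9.34%. The GT1 site core GGTTAA occurred in 7 of 25 (28.0%) and 4 of 13 (30.8%), against 24.5%. In a window of 250 bases before to 50 after the annotated gene start the shares were closer: 28.0% of Calvin cycle genes and 15.4% of photorespiration genes for the I-box core, against 14.7%, and 20.0% and 15.4% for the G-box, against 7.68%. The annotated start of RBCS1A lies 418 bases before its coding start, so that window does not reach its motifs. The coding-start window was chosen after the other had been seen, and both are descriptions with no test.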

How the data were processed

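RNA sequencing counts of 22 libraries were used. Raw read counts per gene were deposited by the authors as 1 table of 33602 genes, 32835 of which matched a RefSeq locus tag. The submitters' processing notes name TAIR 10 as the build. Aligner, counting rule, strand setting and handling of reads that fit several genes were not given in the sources used here. Libraries were made with TruSeq chemistry per the labels' protocols. Totals ran from 35000731 to 138804638 counts, and light libraries were the deeper ones on the whole, so low genes were measured more precisely in the light.

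Counts were fitted with edgeR 4.0.16 in R 4.3.3 (glmQLFit and glmQLFTest, TMM scaling, filterByExpr with a minimum count of 10), with 1 mean for each of 11 groups and 11 residual degrees of freedom. Of all genes 23011 were kept, 37 of them members; the remaining member, PGLP1, failed the filter. Benjamini-Hochberg adjustment ran over those 23011 genes, and calls needed an adjusted p under 0.05. CPM values, counts brought to a common size, use TMM-scaled library sizes. CPM per kilobase uses RefSeq TAIR10.1 exon lengths, and sequences and coordinates come from that assembly. Differences between colours and between times were tested as contrasts of responses. The steps were also run on simulated counts drawn independently for each library, and no outcome is reported here. That setting leaves out the tendency of libraries with the same replicate number to deviate together.

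Every member could be named; library values are given for RBCS1A and RCA, the members with the 2 largest and 2 smallest changes in each pathway, those not called or lower, and the 3 with the smallest adjusted p in a difference with calls. From other lists up to 2 higher and 2 lower genes with the smallest adjusted p are named, and lists of at most 3 genes in full. TKL1, CAT2 in all groups, AT5G36790 and the members gained or lost under an alternative were added after their values were seen. The members and lists were chosen with earlier results of these data known. Alternatives were other scalings (RLE, library totals), other filters, leaving out organelle genes, a replicate block, fitting only the libraries of a comparison, DESeq2 1.42.0 and leaving out each library. A list of root markers is not reported here.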

Additional observations from a re-analysis of the deposited data

Results flagged for a closer look

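In 40 cases the response of a member differed between times or colours by the test of the difference itself (edgeR adjusted p under 0.05), and each is given here as the log2 difference of the responses. In blue light the response at 6 h, against 6 h dark, exceeded the response at 1 h, against 0 h, in 24 members. Of the Calvin cycle they were RBCS1B (2.91), RBCS2B (1.99), RBCS3B (2.58), RCA (2.72), PGK1 (1.59), PGK2 (0.84), GAPA2 (2.75), GAPB (2.09), FBA1 (2.58), FBA2 (1.97), CFBP2 (1.07), SBPASE (1.96), TKL1 (1.35), RPE (1.41), RPI3 (2.01) and CP12-2 (2.54). Of photorespiration they were GOX1 (1.64), GOX2 (1.83), GGT1 (1.87), GLDP1 (1.46), GLDP2 (1.40), GLDT (1.15), SHM1 (2.74) and HPR1 (2.09).

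In red light the 6 h response exceeded the 1 h response in 13 members. Of the Calvin cycle they were RBCS1B (2.71), RBCS2B (2.25), RBCS3B (2.24), RCA (1.83), PGK1 (1.24), GAPA2 (2.55), GAPB (1.92), TKL1 (0.98), RPE (1.42), RPI3 (1.91) and CP12-2 (1.60). Of photorespiration they were GGT1 (1.32) and SHM1 (2.44). It fell short in TKL2 (-0.52) and CAT2 (-1.33). Of these 15 calls 6 held under all alternatives tried, those of RBCS1B, GAPA2, RPE, RPI3, SHM1 and CAT2. Without replicate 1 of red 0 h, RBCS2B (1.39), PGK1 (0.68), GAPB (1.04) and GGT1 (0.77) lost the call, as did RBCS3B (1.61), RCA (1.22) and TKL1 (0.71). That fit leaves replicate 2, the library that stood apart, as the only red 0 h library. Without replicate 2 the differences were 2.78 for RBCS2B, 1.62 for PGK1, 2.46 for GAPB and 1.70 for GGT1. They were 2.67 for RBCS3B, 2.25 for RCA and 1.19 for TKL1. Of the 24 blue calls 13 held under all alternatives tried. Between colours at 6 h the red response of CAT2 was lower than its white response (-1.24). The 1 h and 6 h groups of a series differ in their dark partner as well as in time, and a difference called in blue and not in red is not shown to differ between the colours.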

How the results depend on the processing

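No called change of a member turned its direction under any alternative tried. After 6 h of light the numbers of members called stayed within 1.5 times of those reported in each colour and in the mean of the colours under every alternative. Of 32 members called in the mean, 30 were called under all alternatives, the exceptions being PDTPI and CP12-3; the same holds for 25 of 31 in blue, 22 of 27 in red and 21 of 24 in white. At 1 h only CP12-2 in blue and CP12-2 in red were called under all alternatives. Fitting only the libraries of the comparison gave 1 member in blue and 1 in red at 1 h (808 and 464 of all genes called). It gave 7 for the red difference between 6 h and 1 h. For red at 1 h, library totals gave 4 and DESeq2 gave 11 (1045 and 1485 of all genes called, against 1060 in the main fit). DESeq2 called 2 members in the blue against red comparison at 6 h.

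With each library left out in turn, the members called ranged from 1 to 3 (blue, 1 h), 2 to 20 (red, 1 h), 26 to 31 (blue, 6 h), 22 to 28 (red, 6 h), 21 to 23 (white, 6 h) and 30 to 33 (mean, 6 h). For differences they ranged from 0 to 0 (blue and red, 1 h), 0 to 1 (blue and red, 6 h), 0 to 0 (blue and white), 0 to 1 (red and white), 13 to 25 (blue, 6 h and 1 h) and 6 to 24 (red, 6 h and 1 h), and from 0 to 0 in the dark. Each of these fits left 1 library in a group. At 1 h, and in blue and red at 6 h, the number of all genes called changed as well, so these ranges are not particular to the members. The cause was not tested.

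Libraries with the same replicate number within a series tended to deviate together. The correlation of deviations was positive in all 15 pairs of groups and over 0.1 in 14 of them. The lowest, in the red series, was 0.0478, and the median was 0.287. The 6 blue pairs lay between 0.339 and 0.574. The main fit did not use the replicate numbers, and whether they pair libraries was not settled. With the replicate block 4 members were called in red light at 1 h in place of 7 (1529 of all genes in place of 1060). In blue light at 6 h the block gave 32 members in place of 31 (10122 of all genes in place of 8597). That fit also called AGT1 in blue light at 6 h (0.67, edgeR adjusted p = 0.0107). PGLP1 had 1 count in all, and the other 37 members had counts in every library.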
